A study of Homo sapiens with 12 samples.

Results

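EGR1, FOSL1, IER3, DUSP6 and HBEGF are transcripts that rise when the RAS to ERK kinase cascade is active, and they were followed here across 2 squamous carcinoma lines and the mTOR inhibitor everolimus. They were taken by name, with 1 probe set per gene, the one with the highest mean, and make up 5 of the 14884 genes named on the array. All 5 passed the filter on low levels, which kept 10613 genes. HSC-1 and A431 are established human lines that the labels give as cutaneous squamous cell carcinoma, each represented by a single line. The groups were HSC-1 with everolimus, HSC-1 with DMSO, A431 with everolimus and A431 with DMSO, with 3 arrays in each. Everolimus, which blocks mTOR complex 1, was applied at 100 nM for 72 h, and the other cultures received its vehicle, DMSO. The medium held 10 or 20% serum, and the labels tie neither level to a line, so serum and line cannot be told apart. Whether arrays of the same group came from separate cultures is not stated, so p-values reflect no more than the scatter among these arrays, possibly technical in part.

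Growth factor receptors such as EGFR activate RAS, RAF, MEK and ERK in turn, and ERK phosphorylates transcription factors that switch on a set of early genes. Some of the products act as transcription factors (EGR1, FOSL1), one counters cell death (IER3), one is a phosphatase that switches ERK off again (DUSP6), and one is a secreted ligand that activates EGFR anew (HBEGF). In epidermal cells this pathway is tied to proliferation, migration and wound repair, and mTOR complex 1 is known to restrain it through feedback on receptor signalling.

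RefSeq promoter windows (GRCh38.p14) were matched for 3 of the 5 genes, EGR1, DUSP6 and HBEGF, and none was used for FOSL1 and IER3. The promoter sequences used held no window for FOSL1 and IER3, so the 3 were not picked by their response to everolimus. A link between motifs and response was not tested. Each window is the 250 bases before the gene start, read 5′ to 3′ on the gene's strand: chr5:138465229-138465478 on the plus strand for EGR1, chr12:89352502-89352751 on the minus strand for DUSP6 and chr5:140346604-140346853 on the minus strand for HBEGF. Capitals mark motif matches on either strand.
EGR1: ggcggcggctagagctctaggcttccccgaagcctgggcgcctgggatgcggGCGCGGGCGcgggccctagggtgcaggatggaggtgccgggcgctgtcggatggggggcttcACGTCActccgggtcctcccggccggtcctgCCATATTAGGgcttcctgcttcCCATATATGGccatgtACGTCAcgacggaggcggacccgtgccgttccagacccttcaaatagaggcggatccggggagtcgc
DUSP6: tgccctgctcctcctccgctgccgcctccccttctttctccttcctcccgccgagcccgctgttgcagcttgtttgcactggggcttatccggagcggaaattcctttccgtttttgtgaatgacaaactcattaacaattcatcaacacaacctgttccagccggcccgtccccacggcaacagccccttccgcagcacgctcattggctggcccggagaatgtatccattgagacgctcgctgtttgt
HBEGF: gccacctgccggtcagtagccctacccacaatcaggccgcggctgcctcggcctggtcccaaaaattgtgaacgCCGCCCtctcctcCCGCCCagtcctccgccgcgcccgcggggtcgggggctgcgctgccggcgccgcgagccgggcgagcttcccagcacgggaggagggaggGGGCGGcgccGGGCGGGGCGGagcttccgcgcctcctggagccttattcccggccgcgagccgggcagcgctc

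The EGR1 window held 2 CArG boxes, the sequence bound by serum response factor, starting 105 and 83 bases before the gene start. A CArG box was found in 1.16% of the 35116 windows of the same length. The EGR1 window also held 2 copies of the CRE core ACGTCA (7.1% of windows hold 1 or more) and 1 match to GCGNGGGCG, the site read by EGR proteins themselves (8.41%). The HBEGF window held 5 copies of the GC box GGGCGG, a pair of which overlap (42.6%). The ETS sequence CCGGAA (14.5%) and the AP-1 site TGANTCA (6.57%) matched in none of the 3 windows, and the DUSP6 window held none of the 6 motifs. CCGGAA is a longer form of the ETS core GGAA. That core alone and other ETS forms were not searched, so the windows may hold them. A match describes letters in the window and does not show that a factor binds there.

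All 5 genes lay above the median of every array, by at least 1.51 on the log2 scale (HBEGF in A431 with DMSO). This median is over all 53617 probe sets, most of them unnamed. Among named genes, HBEGF in A431 with DMSO lay at the 57.9th to 60th percentile. The lines carried keratinocyte transcripts as labelled: of 10 fixed markers 6 had a named probe set, and all 6 lay above the median on all 12 arrays. That alone says little, as 10613 of the 14884 named genes lay above it on at least 3 arrays. The 6 markers averaged 9.43 to 9.92 on the log2 scale per array, against 2.30 to 4.61 for the named markers of each other cell type. Of 25 markers of fibroblasts, melanocytes, leukocytes and endothelium, 13 had a named probe set, 3 of these lay above the median on all 12 arrays (MITF, SOX10 and CLDN5) and 6 on none. Pearson's r between arrays of the same group was 0.989 to 0.992.

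In HSC-1, EGR1, FOSL1, IER3 and HBEGF fell after everolimus, by 1.67-fold (IER3) to 1.997-fold (EGR1), and DUSP6 did not pass the test. In A431, EGR1 fell 1.49-fold, DUSP6 rose 1.32-fold and the other 3 did not pass. In HSC-1 this is 4 of 5 members lower, against 11.3% of the 10613 genes tested. In A431 it is 1 of 5 lower, against 4.33% of genes, and 1 of 5 higher, against 2.39%. The members were chosen with earlier results of these data known, so these counts describe them and are no independent evidence. The 3 everolimus arrays lay wholly apart from the 3 DMSO arrays for 5 of 5 members in HSC-1 (33.3% of genes) and for 4 of 5 in A431 (24.5%).

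**Figure D1:**
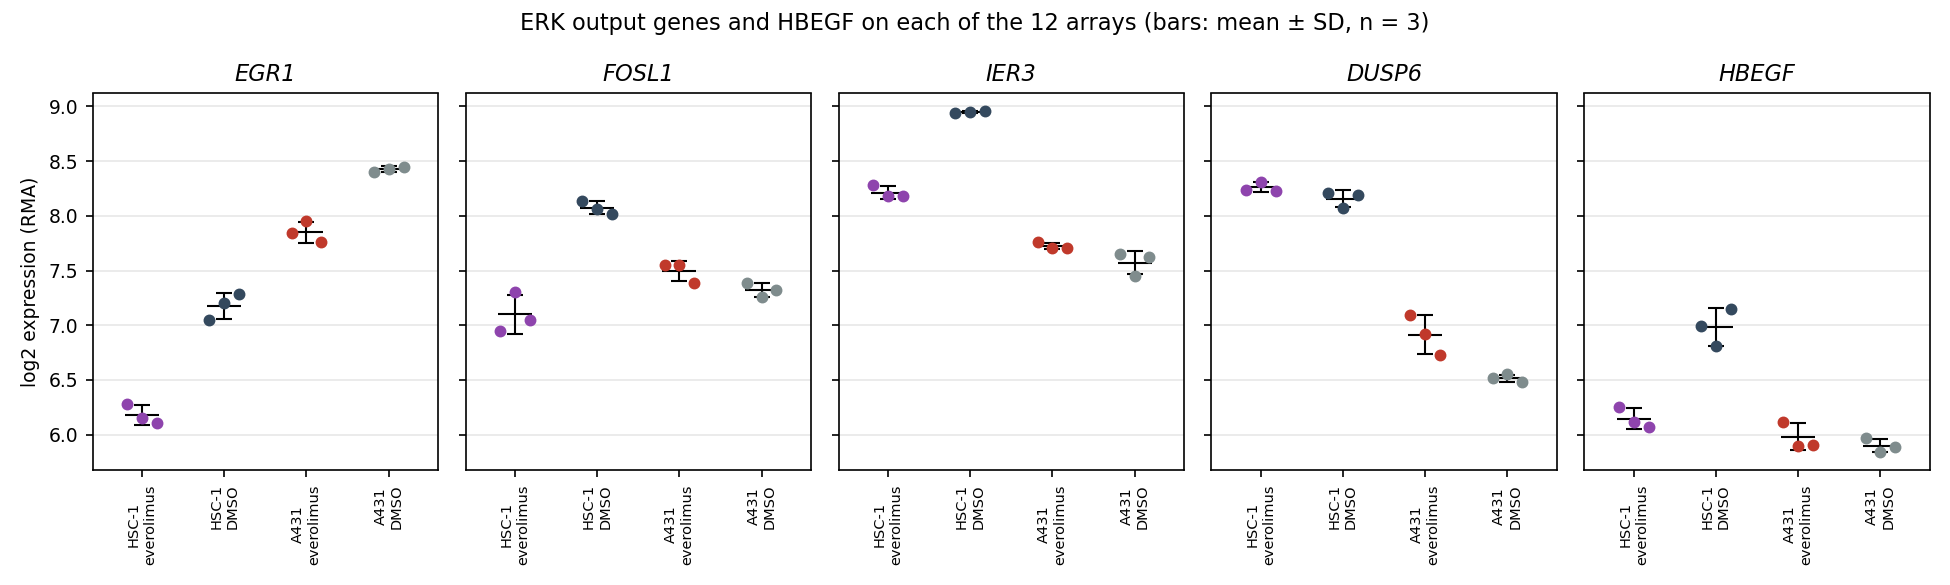
Log2 expression of each gene (vertical axis) on each of the 12 arrays, by line and treatment (horizontal axis), with points for arrays and bars for the mean ± SD of 3. EGR1 is lower with everolimus in both lines, FOSL1, IER3 and HBEGF stand apart downward in HSC-1, and DUSP6 is higher with everolimus in A431.

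EGR1 (probe set 16989736; chromosome 5, 138465479 to 138469303) encodes a zinc finger transcription factor that is made within minutes of ERK activation. It had log2 levels of 6.28, 6.15 and 6.11 in HSC-1 with everolimus, against 7.05, 7.20 and 7.29 in HSC-1 with DMSO. The levels were 7.84, 7.95 and 7.76 in A431 with everolimus, against 8.40, 8.43 and 8.45 in A431 with DMSO. In each line every everolimus array lay below every DMSO array. The log2 difference was -0.998 ± 0.07 (SE) in HSC-1 (limma adjusted p = 1.3e-08) and -0.58 ± 0.07 in A431 (limma adjusted p = 2.3e-05). EGR1 was the 1 member of the 5 that passed in both lines and fell in both, which 136 genes did (1.28% of those tested). None of the 5 passed in both lines as a rise (0.782% of genes) or in opposite directions (0.801%). Both A431 groups lay above both HSC-1 groups, and no neighbouring groups overlapped.

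A second probe set annotated to EGR1 (17000463) had a mean of 4.25 and lay above the array median on 6 of 12 arrays. In a fit over all probe sets of the array, its log2 differences were -0.35 ± 0.14 in HSC-1 (limma adjusted p = 0.212) and -0.36 ± 0.14 in A431 (limma adjusted p = 0.348), neither past the threshold.

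FOSL1 (probe set 16740630; chromosome 11, 65892049 to 65900545) encodes FRA-1, an AP-1 subunit whose gene and protein stability both depend on ERK. Its levels were 6.95, 7.30 and 7.05 in HSC-1 with everolimus, against 8.14, 8.06 and 8.02 in HSC-1 with DMSO. They were 7.55, 7.55 and 7.39 in A431 with everolimus, against 7.39, 7.26 and 7.32 in A431 with DMSO. All HSC-1 everolimus arrays were well below the DMSO arrays, while the A431 arrays of the 2 treatments nearly touched. The difference was -0.97 ± 0.08 in HSC-1 (limma adjusted p = 6.3e-08). It was 0.17 ± 0.08 in A431 (limma adjusted p = 0.214), with a 95% interval from 0.01 to 0.33 that is not adjusted for the number of genes. HSC-1 with DMSO was the highest of the 4 groups and HSC-1 with everolimus the lowest by its mean, though its arrays overlapped those of A431 with DMSO.

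IER3 (probe set 17028909; chromosome 6, 30743199 to 30744547), also called IEX-1, is an early response gene whose product is an ERK substrate and affects cell survival. It had levels of 8.28, 8.18 and 8.18 in HSC-1 with everolimus, against 8.94, 8.95 and 8.96 in HSC-1 with DMSO. In A431 it had 7.76, 7.71 and 7.71 with everolimus, against 7.65, 7.45 and 7.62 with DMSO. Its arrays agreed most closely in HSC-1 with DMSO, where they spanned 8.94 to 8.96, and no pair of neighbouring groups overlapped. The difference was -0.74 ± 0.05 in HSC-1 (limma adjusted p = 2.4e-08) and 0.15 ± 0.05 in A431 (limma adjusted p = 0.104, 95% interval 0.04 to 0.26, not adjusted for the number of genes).

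IER3 had 11 annotated probe sets with 4 different sets of values, since 4 carried the values used here and 5 others shared a second set with each other. The 2 remaining probe sets had differences of -0.75 and -0.72 in HSC-1 and 0.12 and 0.17 in A431. The 5 that shared values had a mean of 5.44, lower than that of the probe set used (8.12), and differences of -0.47 in HSC-1 and 0.11 in A431. Every IER3 probe set was thus lower in HSC-1 with everolimus and slightly higher in A431 with everolimus. Probe sets with the same values are not separate measurements. The gene overlaps the antisense transcript IER3-AS1 in the RefSeq annotation.

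**Figure D2:**
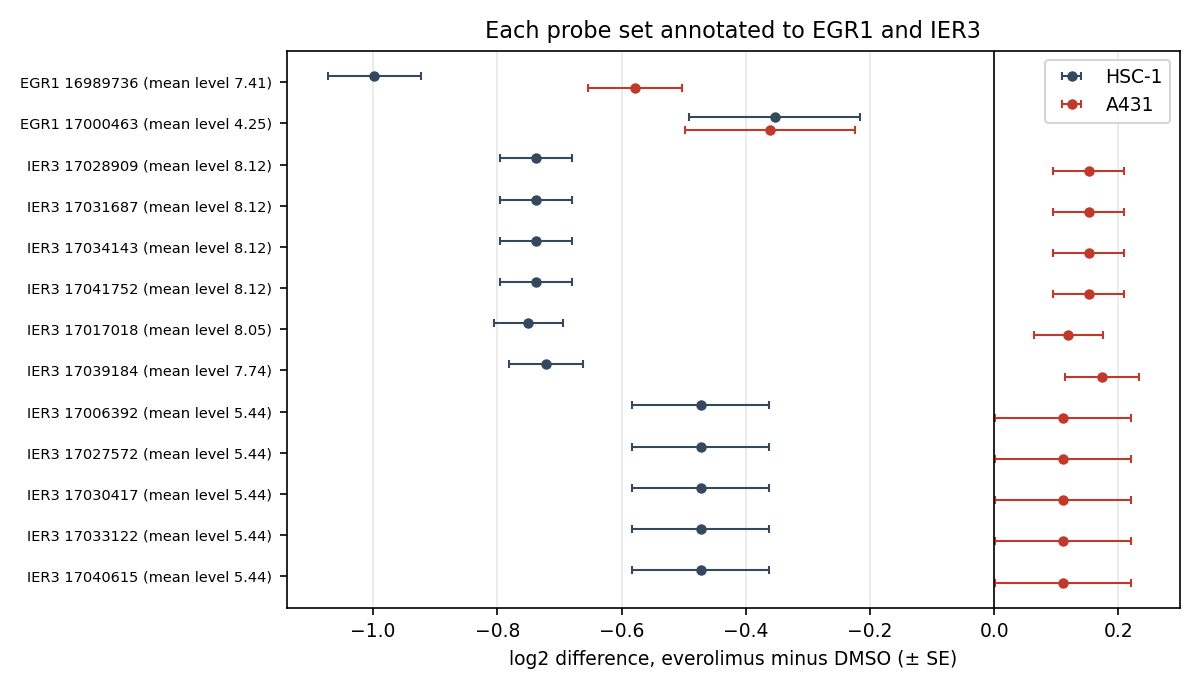
Log2 difference, everolimus minus DMSO, with its SE (horizontal axis, from a fit over all probe sets of the array) for each probe set annotated to EGR1 and IER3 (vertical axis, with its mean log2 level), in HSC-1 and A431. The 11 IER3 probe sets lie at -0.75 to -0.47 in HSC-1 and 0.11 to 0.17 in A431.

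DUSP6 (probe set 16768297; chromosome 12, 89347235 to 89352501) encodes the cytoplasmic phosphatase MKP-3, which removes the activating phosphates from ERK and is itself induced by ERK. Its levels were 8.24, 8.31 and 8.23 in HSC-1 with everolimus, against 8.21, 8.07 and 8.19 in HSC-1 with DMSO. In A431 they were 7.09, 6.92 and 6.73 with everolimus, against 6.52, 6.55 and 6.48 with DMSO. The A431 everolimus arrays were spread most widely and still lay above all DMSO arrays, while the 2 HSC-1 groups were close together. The difference was 0.10 ± 0.07 in HSC-1 (limma adjusted p = 0.383, 95% interval -0.05 to 0.26) and 0.40 ± 0.07 in A431 (limma adjusted p = 0.0021). The interval in HSC-1 does not reach the falls of the other 4 members there. RefSeq also lists a readthrough transcript, POC1B-DUSP6, over the same region, and its share of this signal was not tested.

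HBEGF (probe set 17000724; chromosome 5, 140332843 to 140346603) encodes a membrane-anchored EGFR ligand that sheddases release, and epidermal cells use it in wound closure. It had levels of 6.25, 6.12 and 6.07 in HSC-1 with everolimus, against 6.99, 6.81 and 7.15 in HSC-1 with DMSO. In A431 it had 6.12, 5.90 and 5.91 with everolimus, against 5.97, 5.84 and 5.89 with DMSO. HSC-1 with DMSO stood alone at the top, and each of the other 3 groups overlapped its neighbour in the order of means. The difference was -0.84 ± 0.09 in HSC-1 (limma adjusted p = 5.2e-06). It was 0.08 ± 0.09 in A431 (limma adjusted p = 0.713), with an interval from -0.12 to 0.28.

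The effect of everolimus differed between the lines for 4 of the 5 genes, lower in HSC-1 in each case, against 5.69% of genes with a lower effect there and 4.84% with a higher one. FOSL1 had the largest difference between effects, HSC-1 minus A431, at -1.15 ± 0.11 (limma adjusted p = 2.0e-06). HBEGF followed at -0.92 ± 0.13 (limma adjusted p = 0.00018) and IER3 at -0.89 ± 0.08 (limma adjusted p = 9.4e-07). These 3 fell in HSC-1 and did not pass in A431. The EGR1 difference was -0.42 ± 0.10 (limma adjusted p = 0.009), between falls of unequal size. It did not pass with the mean of both EGR1 probe sets (-0.21, limma adjusted p = 0.367), where the probe set near the array median enters with equal weight. Nor did it pass for the probe set used when the fit and adjustment covered all 53617 probe sets of the array (limma adjusted p = 0.08), an alternative chosen after seeing the data. For DUSP6 the difference was -0.29 ± 0.10 (limma adjusted p = 0.0805), and it passed without A431 everolimus replicate 3 (-0.39, limma adjusted p = 0.0106).

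**Figure D3:**
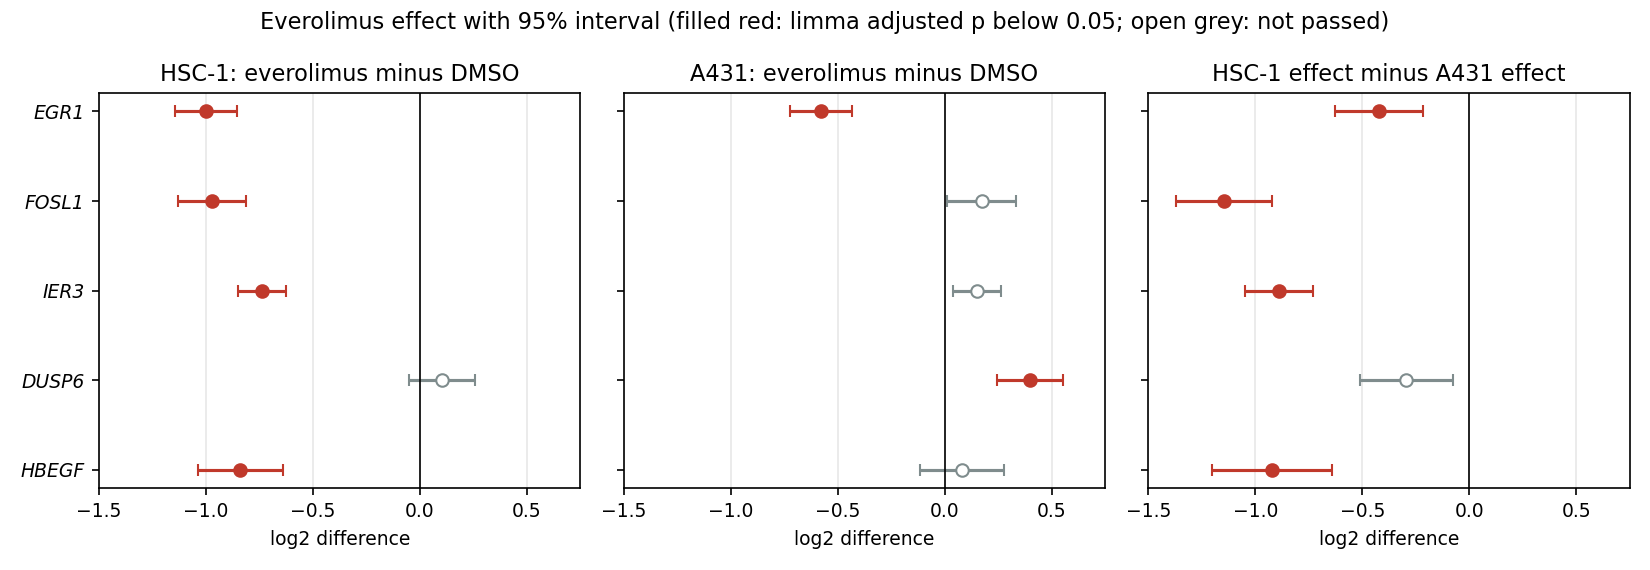
Log2 differences with 95% intervals (horizontal axis) for the 5 genes (vertical axis) in HSC-1, in A431 and as the difference between these effects, HSC-1 minus A431. Filled red points passed an adjusted p of 0.05 and open grey points did not: 4 genes lie below 0 in HSC-1, and EGR1 alone does in A431.

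In DMSO all 5 genes differed between the lines, with 4 higher and 1 lower in HSC-1, against 29.2% and 30.2% of genes tested. A difference between these lines was common, as 59.4% of genes passed, and the arrays did not overlap for 5 of 5 members and 65.3% of genes. DUSP6 was 3.12-fold higher in HSC-1 with DMSO than in A431 with DMSO (log2 difference 1.64 ± 0.07, limma adjusted p = 5.3e-13). IER3 was 2.60-fold higher (1.38 ± 0.05), HBEGF 2.12-fold higher (1.09 ± 0.09) and FOSL1 1.68-fold higher (0.75 ± 0.08). EGR1 was the exception, 2.38-fold lower in HSC-1 (-1.25 ± 0.07, limma adjusted p = 1.2e-11). In DMSO, A431 thus had the higher EGR1 level and HSC-1 the higher DUSP6 level.

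This comparison shares the HSC-1 DMSO arrays with the everolimus comparison in HSC-1, and the A431 DMSO arrays with that in A431. FOSL1, IER3 and HBEGF were each higher in HSC-1 with DMSO and fell there with everolimus, so an error in those 3 arrays would enter both values. With everolimus in both lines, the HSC-1 minus A431 difference of means was 0.16 for HBEGF, against 1.09 in DMSO. For IER3 it was 0.49 with everolimus and 1.38 in DMSO, and for FOSL1 -0.40 with everolimus and 0.75 in DMSO. DUSP6 kept most of its gap, with 1.35 under everolimus and 1.64 in DMSO. The gap for EGR1 was wider under everolimus (-1.67) than in DMSO (-1.25). These differences of gaps are the same quantities as the tested differences between effects.

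The wider ERK output list of 29 genes had 23 with a named probe set, all tested, of which 4 are the members EGR1, FOSL1, IER3 and DUSP6. In HSC-1, 6 of the 23 fell, 2 rose and 15 missed the threshold. The median of the list was -0.12 on the log2 scale, and that of all tested genes -0.02. Without the 4 members, 3 of 19 fell and 2 rose, against 11.3% and 7.34% of all genes. The additional falls were EPHA2, an ephrin receptor (-0.29 ± 0.06, limma adjusted p = 0.0012), the feedback inhibitor SPRY4 (-0.32 ± 0.10) and the pseudokinase TRIB1 (-0.27 ± 0.09). The rises were cyclin D1, CCND1 (0.23 ± 0.04, limma adjusted p = 0.0006), and the transcription factor KLF10 (0.21 ± 0.05). The list had 5 calls in place of 8 without HSC-1 DMSO replicate 3, where the SPRY4, TRIB1 and KLF10 calls were lost. The SPRY4 and TRIB1 calls were lost also without HSC-1 DMSO replicate 1 and everolimus replicates 2 and 3, and TRIB1 without HSC-1 everolimus replicate 1 and each A431 DMSO array. The SPRY4 call was lost as well in the fit on 6 arrays, and TRIB1 without the low-value filter or the intensity trend.

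In A431, 4 of the 23 rose, 2 fell and 17 missed the threshold. The median of the list was -0.03, and that of all tested genes -0.0038. Without the members, 3 of 19 rose and 1 fell, against 2.39% and 4.33% of all genes. The ephrin receptor EPHA4 had a difference of 0.54 ± 0.10 (limma adjusted p = 0.0013). The growth regulator MYC had 0.23 ± 0.05 (limma adjusted p = 0.0064), and both calls held under all 22 alternatives. The ETS factor ETV4 rose by 0.36 ± 0.10 (limma adjusted p = 0.0411). The nuclear ERK phosphatase DUSP5 fell by 0.51 ± 0.12 (limma adjusted p = 0.0158), opposite to the rise of DUSP6 in A431. With everolimus in A431, DUSP5 lay close to the array median, at 4.57 to 4.71 against array medians of 4.35 to 4.36. Its fall therefore depends on the background. Of 22 alternatives, 11 lost the ETV4 call, among them leaving out A431 DMSO replicates 2 or 3, A431 everolimus replicates 1 or 3 and HSC-1 DMSO replicates 1 or 2. The DUSP5 call was lost when its probe sets were averaged and without A431 DMSO replicates 1 or 3 or A431 everolimus replicate 2 (limma adjusted p up to 0.119). The effect differed between the lines for 2 of the 19 as lower in HSC-1 and 1 as higher, against 5.69% and 4.84% of genes. ETV4 had -0.61 ± 0.15 (limma adjusted p = 0.0116), a call that held under all 21 alternatives. EPHA2 had -0.26 ± 0.08 (limma adjusted p = 0.0481), lost in 12 of 21. CCND1 went the other way, at 0.26 ± 0.06 (limma adjusted p = 0.0053), lost in 1 of 21. In DMSO, 10 of the 19 were higher in HSC-1 and 5 lower, where 29.2% of all genes were higher and 30.2% lower. Among them were MYC (0.84) and ETV4 (0.87), which like DUSP6 were higher, and EPHA4 (-1.04) and CCND1 (-1.33), which like EGR1 were lower.

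Beside DUSP6, 9 inhibitors that ERK signalling or its receptors switch on or that oppose RAS were tested. In HSC-1, 3 of the 9 fell and 1 rose, against 11.3% and 7.34% of all genes, and in A431 1 fell, against 4.33%. In HSC-1, the phosphatase DUSP7 fell by 0.26 ± 0.07 (limma adjusted p = 0.0133), together with SPRY4 and the EGFR inhibitor ERRFI1 (-0.15 ± 0.05, limma adjusted p = 0.0362), and the RAS inhibitor NF1 rose by 0.18 ± 0.05 (limma adjusted p = 0.0128). In A431, DUSP5 was the 1 of the 9 that passed, and 0 of the 9 rose, where 2.39% of all genes rose. DUSP6, which did rise there, was chosen with earlier results of these data known. DUSP4, a nuclear phosphatase of the same family, had -0.17 in HSC-1 and -0.14 in A431, neither past the threshold. The DUSP7 call was lost without HSC-1 DMSO replicate 3 (limma adjusted p = 0.0579), the ERRFI1 call with a replicate block, without the low-value filter, without the intensity trend and without HSC-1 DMSO replicates 1 or 2 or HSC-1 everolimus replicates 2 or 3 (up to 0.134) and the NF1 call without the intensity trend and without HSC-1 DMSO replicate 1 or HSC-1 everolimus replicates 1 or 2 (up to 0.0665).

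**Figure D4:**
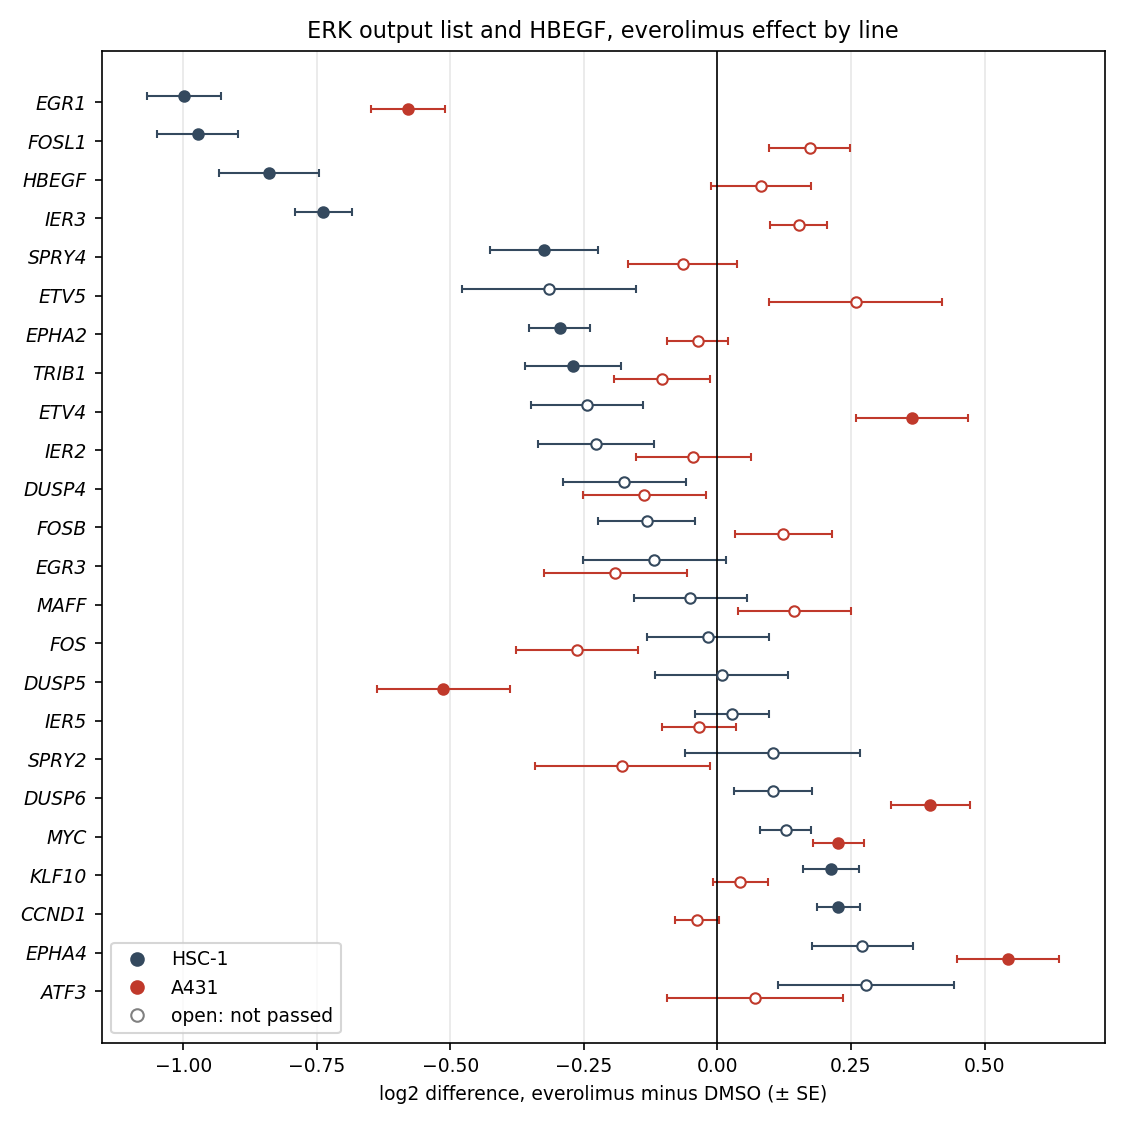
Log2 difference, everolimus minus DMSO, with its SE (horizontal axis) for the 23 tested ERK output genes and HBEGF (vertical axis), in HSC-1 (dark) and A431 (red). Filled points passed an adjusted p of 0.05. EGR1, FOSL1, HBEGF and IER3 have the 4 lowest values in HSC-1, from -0.998 to -0.74, and the next, SPRY4, lies at -0.32. The members were chosen with earlier results of these data known, so their place in this order is no independent evidence.

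Among 11 tested AP-1 subunits FOSL1 fell in HSC-1, as did JUN, its dimer partner (-0.29 ± 0.09, limma adjusted p = 0.0317), and the other 9 did not pass. JUN was 1 fall among the 10 other than FOSL1, near the 11.3% of all genes. In A431, 0 of 11 passed by limma, against 6.73% of all genes. At an unadjusted p under 0.05 there were 2 (1 higher and 1 lower), and JUN had 0.15 ± 0.09. FOSL2, the closest relative of FOSL1, had -0.04 ± 0.06 in HSC-1 and -0.04 ± 0.06 in A431. FOS had -0.02 ± 0.11 in HSC-1 and -0.26 ± 0.11 in A431, neither past the threshold. The JUN call was lost without the intensity trend and without HSC-1 DMSO replicates 1 or 3 or HSC-1 everolimus replicate 2 (limma adjusted p up to 0.193). Of 15 immediate-early genes tested, 3 fell in HSC-1 (EGR1, IER3 and JUN), 1 rose (KLF10) and 11 did not pass. Without the members it was 1 fall and 1 rise among 13, near the 11.3% and 7.34% of all genes. In A431, EGR1 was the 1 gene of these 15 that passed, near the 6.73% of all genes, so the count says nothing about this list.

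HBEGF was 1 of 3 EGFR ligands tested. In HSC-1 it was the 1 that passed with everolimus, as a fall, where 11.3% of all genes fell. In A431, 0 of 3 passed by limma, against 6.73% of all genes. HBEGF was chosen with earlier results of these data known, so the count is no independent evidence. EREG, or epiregulin, had differences of -0.23 ± 0.16 in HSC-1 and -0.28 ± 0.16 in A431, and betacellulin, BTC, 0.07 ± 0.15 and -0.01 ± 0.15, none past the threshold. Both were higher in A431, opposite to HBEGF: with DMSO, EREG had 4.34 ± 0.30 in HSC-1 and 7.43 ± 0.14 in A431 (SD, n = 3), and BTC had 3.71 ± 0.26 and 5.16 ± 0.14 in the same order of lines. BTC lay below the array median on all 6 HSC-1 arrays, and EREG lay close to it there, at 3.69 to 4.56 against array medians of 4.34 to 4.39. The differences of both genes between the lines, and within HSC-1, therefore depend on the background. EGF and EPGN stayed below the median on all 12 arrays and were not tested, and AREG and TGFA are not analysed here. EGFR, the receptor of these ligands, had 12.54 ± 0.02 in HSC-1 with everolimus, 12.52 ± 0.03 in HSC-1 with DMSO, 11.63 ± 0.07 in A431 with everolimus and 11.64 ± 0.02 in A431 with DMSO. Its everolimus differences were 0.01 ± 0.03 in HSC-1 and -0.01 ± 0.03 in A431.

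The metalloprotease ADAM12, which can shed HBEGF, fell in HSC-1 along with its substrate's transcript. It had 5.55 ± 0.11 in HSC-1 with everolimus and 6.51 ± 0.12 in HSC-1 with DMSO (SD, n = 3), a difference of -0.95 ± 0.15 (limma adjusted p = 0.0002). In A431 it had 4.07 ± 0.16 with everolimus and 3.92 ± 0.37 with DMSO, below the array median on all 6 arrays. ADAM9 fell by 0.29 ± 0.05 in HSC-1 (limma adjusted p = 0.00017), and ADAM17, the main HBEGF sheddase, had -0.03 ± 0.06 there and -0.05 ± 0.06 in A431. Of 11 genes of HBEGF shedding and its membrane partners, 2 fell in HSC-1 (11.3% of all genes did), 2 fell in A431 (4.33%) and the other 9 did not pass in each. The HSC-1 count is near the share of all genes and says nothing about this list. The A431 falls were the tetraspanins CD9, which binds the HBEGF precursor (-0.28 ± 0.07, limma adjusted p = 0.0259), and CD82 (-0.45 ± 0.11, limma adjusted p = 0.0173). Without the intensity trend both A431 calls were lost. The CD9 call was lost without A431 DMSO replicates 1 or 3 or A431 everolimus replicates 1 or 2, and the CD82 call without A431 DMSO replicates 2 or 3 or A431 everolimus replicate 3.

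**Figure D5:**
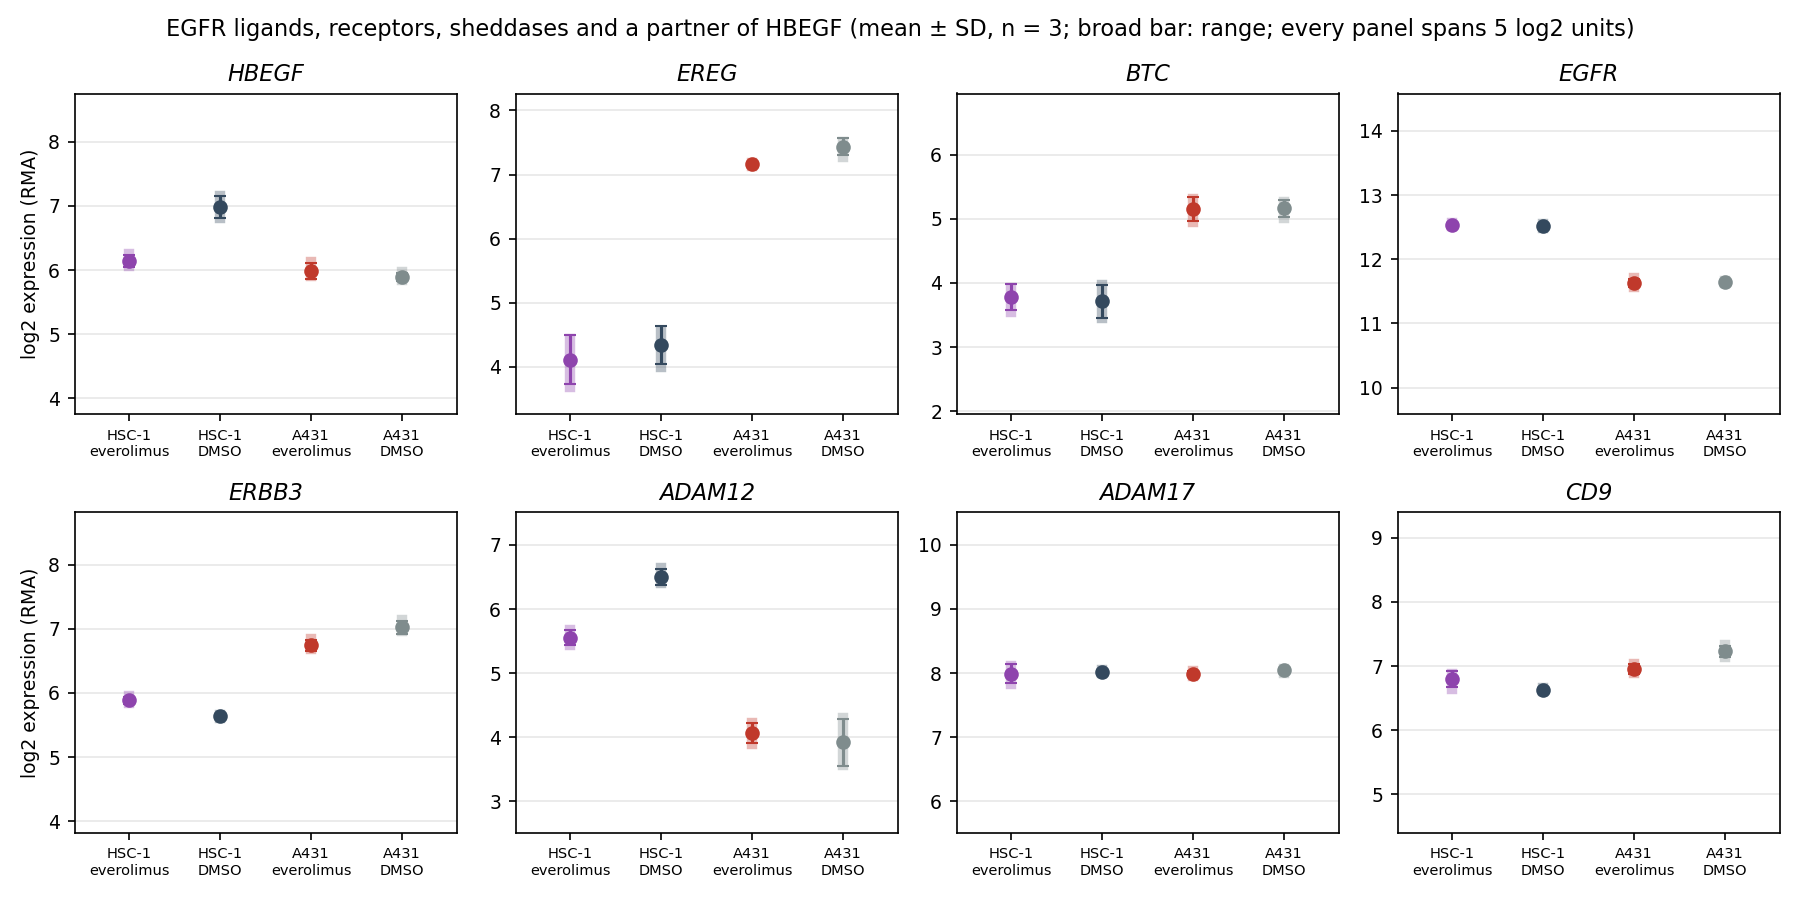
Log2 expression (vertical axis, 5 log2 units in every panel) of HBEGF, the ligands EREG and BTC, the receptors EGFR and ERBB3, the proteases ADAM12 and ADAM17 and the HBEGF partner CD9, by line and treatment (horizontal axis). Points and bars are the mean ± SD of 3 arrays and broad bars their range. HBEGF and ADAM12 are highest in HSC-1 with DMSO and lower there with everolimus, EREG and BTC are higher in A431, and levels are to be compared within a panel.

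The genes most like each member were sought by Pearson's r over the 12 arrays, after subtracting each line's mean, among the tested genes. These values are descriptions, since the arrays of a line share their treatment groups and many genes follow them. EGR1 was most like CLCA2 (r = 0.98), GNE (0.98) and CDA (0.98). FOSL1 was most like DHRS3 (0.97), RNF24 (0.96) and TRMT112 (0.96), and HBEGF like RNF24 (0.96), PSAT1 (0.96) and XPO6 (0.96). For IER3 the 3 were SNRPA (0.98), PSAT1 (0.98) and CDC20 (0.97). DUSP6 was most like FGFR1OP2 (0.95), UBR4 (0.91) and CLIP1 (0.91). RNF24 and PSAT1 each appeared for a pair of members (FOSL1 with HBEGF, and IER3 with HBEGF).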

How the data were processed

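The authors deposited 1 log2 expression value per probe set and array, from RMA, which in its standard form includes quantile normalization, in Affymetrix Expression Console, which the submitters' processing notes name without a version or genome build. Such normalization hides a shift in the RNA content of whole cells. Precision is limited by the number of arrays. Groups and replicate numbers come from the labels. Of 53617 probe sets, 16098 carried 1 gene symbol, all matched by Entrez identifier to RefSeq (GRCh38.p14), the source of positions and promoter windows, and 37519 are unnamed here.

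A gene was tested on its probe set with the highest mean, where at least 3 of 12 arrays lay above their own median. limma 3.58.1 (R 4.3.3) fitted the 4 group means over all 12 arrays (lmFit, then eBayes with the prior variance following mean level; residual degrees of freedom were 8), and p-values were adjusted by Benjamini-Hochberg over 10613 genes, with 0.05 as the threshold. SE is the moderated standard error. Named genes were the members, a fixed panel, up to 4 passing genes per list and comparison, cell type markers and the 3 genes most like each member; TRIB1 and SHC1 complete small counts and were chosen after their values were seen. Members and lists were chosen with earlier results of these data known. The fit was tested on simulated data. Alternatives were a replicate block, other filters, variance priors, array weights, renormalization, fits on 6 arrays, averaged probe sets, an adjusted p of 0.01, leaving out each array and, added after seeing the data, a fit over all probe sets.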

Additional observations from a re-analysis of the deposited data

Results flagged for a closer look

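The everolimus effect differed between the lines by the test of the difference itself for 4 genes, each given as the log2 effect in HSC-1 less that in A431. For FOSL1 it was -1.15 (limma adjusted p = 2.0e-06), with all 3 HSC-1 everolimus arrays below all HSC-1 DMSO arrays and no passing change in A431. For HBEGF it was -0.92 (limma adjusted p = 0.00018), and for IER3 -0.89 (limma adjusted p = 9.4e-07), with the same pattern. For EGR1 it was -0.42 (limma adjusted p = 0.009), between falls in both lines, and it did not pass with the mean of both EGR1 probe sets (-0.21, limma adjusted p = 0.367) or with all probe sets of the array in the fit (limma adjusted p = 0.08).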

How the results depend on the processing

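Of 20 results, the 5 genes in 4 comparisons, 18 kept their direction and their side of the threshold under all 22 alternatives (21 for the difference between the lines, where a fit on 6 arrays does not apply). The exceptions were the EGR1 difference between the lines with the mean of its probe sets (-0.21) and the DUSP6 difference between the lines, which was -0.39 to -0.21 with 1 array left out and passed without A431 everolimus replicate 3. With all probe sets of the array in the fit, chosen after seeing the data, 19 of the 20 kept their call, and the EGR1 difference between the lines (-0.42) had a limma adjusted p of 0.08. The EGR1 fall ranged from -1.06 to -0.68 in HSC-1 and from -0.63 to -0.47 in A431 over the 22 alternatives.

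With the replicate block, 1845 genes were called in HSC-1, against 1977 without it, and 621 in A431, against 714; no call on the 5 genes changed. Arrays with the same number deviated from their group means with correlations of -0.15 to 0.02, and 1 of 12 correlated best with its own number, so the numbers were not taken to pair the arrays. In A431, 438 genes were called without the intensity trend, 347 at an adjusted p of 0.01 and 456 to 836 with 1 array left out (458 and 456 when A431 DMSO replicate 1 or 2 was the one left out). At an adjusted p of 0.01, 1115 genes were called in HSC-1 and 541 for the difference between the lines (1118 at 0.05). The ERK output list had 8 calls in HSC-1, and 5 to 9 with 1 array left out. The causes were not tested. Probe sets near the array median, such as the second of EGR1 and those of BTC, EREG, ADAM12 and, in A431, DUSP5, limit what their differences show.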

Other observations

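Of 14 tested genes of the RAS to ERK cascade itself, 5 fell in HSC-1 and 9 did not pass. Their median was -0.11 on the log2 scale, and that of all tested genes, of which 11.3% fell, was -0.02. In A431 the median of the 14 was also -0.11, and that of all tested genes -0.0038. MKNK2, a kinase that ERK activates and that phosphorylates the cap-binding factor eIF4E, fell by 0.37 ± 0.06 (limma adjusted p = 0.00028). The ERK kinase MAP2K1 fell by 0.24 ± 0.05 (limma adjusted p = 0.0014) and the scaffold KSR1 by 0.43 ± 0.10 (limma adjusted p = 0.0041), and these 3 calls held under all 22 alternatives. The adaptors GRB2 (-0.21 ± 0.07, limma adjusted p = 0.0374) and SHC1 (-0.16 ± 0.05, limma adjusted p = 0.044) also passed. Their calls were lost in 7 and 10 of 22 alternatives, among them without HSC-1 DMSO replicates 1 or 2 and HSC-1 everolimus replicate 3 for both. GRB2 lost it also without HSC-1 DMSO replicate 3, and SHC1 without HSC-1 everolimus replicate 2, A431 DMSO replicates 1 or 2 and A431 everolimus replicate 1. In A431, MKNK2 was the 1 gene of the 14 that passed (-0.23 ± 0.06, limma adjusted p = 0.0308), where 4.33% of all genes fell. This call was lost in 6 of 22 alternatives, which included leaving out A431 DMSO replicates 1 or 3 and A431 everolimus replicates 1 or 3. The difference between the lines passed for 0 of the 14 by limma, against 10.5% of all genes. At an unadjusted p under 0.05 there were 2 (1 higher and 1 lower).

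ERBB3, a receptor of neuregulins that partners with EGFR, went opposite ways in the lines. It had 5.88 ± 0.06 in HSC-1 with everolimus and 5.63 ± 0.02 in HSC-1 with DMSO, and 6.74 ± 0.08 in A431 with everolimus and 7.02 ± 0.10 in A431 with DMSO (SD, n = 3). The difference between the effects was 0.53 ± 0.11 (limma adjusted p = 0.0037) and passed under all 21 alternatives. The rise in HSC-1 (0.25 ± 0.08, limma adjusted p = 0.0305) was lost without any 1 HSC-1 array except everolimus replicate 3. The fall in A431 (-0.28 ± 0.08, limma adjusted p = 0.0326) was lost without any 1 A431 array except everolimus replicate 1, and with a replicate block.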
